A study of Mus musculus with 10 samples.

Results

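Troponin is the calcium switch of the muscle thin filament, and the 7 genes that encode its skeletal and embryonic forms were followed through every deposited comparison of a study of TBP turnover in C2C12 cells. The members were chosen by symbol: Tnnc1 and Tnnc2 for troponin C, Tnni1 and Tnni2 for troponin I, and Tnnt1, Tnnt2 and Tnnt3 for troponin T. All 7 were found among the 23388 genes listed in all 4 tables. C2C12 is a mouse myoblast line that fuses into myotubes when serum is withdrawn. Huwe1 encodes a ubiquitin ligase and Usp10 a deubiquitinase, and the study asked whether changing either one alters TBP, the TATA-binding protein, and the muscle program.

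There were 4 comparisons, each with its own table of FPKM values, which count fragments per length of transcript and per depth of the library. In growth medium, which is day 0, and after 6 days in differentiation medium, cells labelled wildtype were compared with cells carrying an shRNA against Huwe1. At day 8, myotubes given a non-targeting RNA were compared with myotubes that received Huwe1 shRNAs when differentiation was already under way. At day 6, cells carrying a USP10 cDNA driven by the EF1a promoter were compared with a day 6 control. Each knockdown column pools 2 libraries with a hairpin each, every other column is 1 library, and no replicate value is given. The day 0 and day 6 hairpins differ from the day 8 pair, and the wildtype controls are not labelled as carrying any hairpin, so viral delivery and the loss of Huwe1 cannot be told apart there. With 1 value per condition no difference has a replicate check and no test was possible. The headers of both day 6 tables name the same control reads, yet the control values differ, so the USP10 control column was used as that table's own control. From the steps between low FPKM values, the single-library columns were estimated at 7780000 to 29800000 fragments, the lowest being the control of the USP10 table.

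In the thin filament, troponin C binds calcium, troponin I holds back actin and myosin until calcium arrives, and troponin T anchors the complex to tropomyosin. Each subunit comes in forms made by separate genes. Tnnc1, Tnni1 and Tnnt1 encode the slow-fibre forms (Tnnc1 also serves the heart), Tnnc2, Tnni2 and Tnnt3 the fast-fibre forms, and Tnnt2 the cardiac troponin T that embryonic skeletal muscle also makes. All rise as myoblasts differentiate, and their transcripts are a standard readout of the muscle program.

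Because the study concerns the factor that binds the TATA box, the sequence just before the annotated start of each troponin gene is shown. RefSeq promoters of build GRCm38.p6 matched 5 of the 7 genes, with the start equal to the edge of the deposited locus in each. The 120 bases before the start are given 5′ to 3′ on the gene's own strand. Capitals mark TATAA in the last 50 bases, CANNTG (the E-box, bound by MyoD and its relatives) and CATTCC (the MCAT element, bound by TEAD factors), searched on both strands.
Tnnc1, chr14:31208192-31208311, plus strand: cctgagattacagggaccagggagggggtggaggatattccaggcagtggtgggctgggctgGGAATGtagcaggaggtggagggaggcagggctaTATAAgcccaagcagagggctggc
Tnnc2, chr2:164779735-164779854, minus strand: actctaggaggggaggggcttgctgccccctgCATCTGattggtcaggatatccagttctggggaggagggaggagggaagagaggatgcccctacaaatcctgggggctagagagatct
Tnni1, chr1:135799301-135799420, plus strand: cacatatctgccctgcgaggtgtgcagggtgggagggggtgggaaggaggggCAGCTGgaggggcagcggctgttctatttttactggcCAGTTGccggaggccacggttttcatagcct
Tnnt1, chr7:4515976-4516095, minus strand: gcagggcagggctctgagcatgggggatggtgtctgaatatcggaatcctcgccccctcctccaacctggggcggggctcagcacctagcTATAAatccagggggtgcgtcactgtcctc
Tnnt2, chr1:135836214-135836333, plus strand: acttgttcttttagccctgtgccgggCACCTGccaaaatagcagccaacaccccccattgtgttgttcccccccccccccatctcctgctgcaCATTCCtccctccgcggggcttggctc
TATAA stood at bases -24 to -20 in Tnnc1 and -30 to -26 in Tnnt1, and the other 3 windows did not hold it. Among 32841 promoters of the table, 6.36% held TATAA in the same 50 bases. Over the full 250 bases before the start, CANNTG was found in all 5 windows, from 1 place in Tnnt1 to 4 in Tnni1 and Tnnt2, against 66.2% of all promoters. CATTCC was found in Tnnc1 and Tnnt2, against 12.6% of all promoters. The MEF2 site and the CArG box were found in none of the 5 windows, against 2.92% and 1.47% of all promoters. Tnni2 and Tnnt3 had no entry.

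The targeted genes were read first as a check of the labels. Huwe1 went from 38.3 to 15.2 FPKM at day 0, from 35.1 to 21.9 at day 6 and from 55.4 to 33.0 at day 8, so the knockdown column was the lower one each time, by 2.52-, 1.61- and 1.68-fold. In the USP10 table, Usp10 went from 10.3 to 38.3 FPKM, 3.70-fold higher. Usp10 was also 2.68-fold higher in the day 6 Huwe1 knockdown, at 13.2 and 35.4 FPKM. At day 0 it stood at 68.5 (control) and 64.2 FPKM (knockdown), above the USP10 column, across tables normalized separately. The Usp10 row alone therefore does not settle the overexpression label. The labels do not give the species of the USP10 cDNA, so how much of it the mouse gene row captures is not known.

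All 7 troponin genes were lower in the Huwe1 knockdown at day 6 and again at day 8, each by at least 2-fold. With USP10 overexpressed, 5 of the 7 were at least 2-fold lower, while fast troponin I (Tnni2) and cardiac troponin T (Tnnt2) stood within 1.13-fold of their control. These day 6 counts depend on the control column: with that of the other day 6 table, an alternative chosen after seeing the values, 4 of the 7 were at least 2-fold lower in the knockdown, where 9.92% of all genes were, and 7 of 7 with USP10, where 15.5% were. In undifferentiated cells only Tnnt2 was well expressed, and it was 2.26-fold lower in the knockdown. The 8 myoblast markers summed to 642 and 351 FPKM there, and all 7 that passed the minimum were lower (median log2 ratio -0.82). The part of these markers in the result was not tested. Over all genes with at least 1 FPKM in a column, 13.4% were at least 2-fold lower at day 6, 10.0% at day 8 and 10.0% with USP10. In bulk RNA, fewer cells that make troponin and less troponin RNA per cell cannot be told apart.

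**Figure D1:**
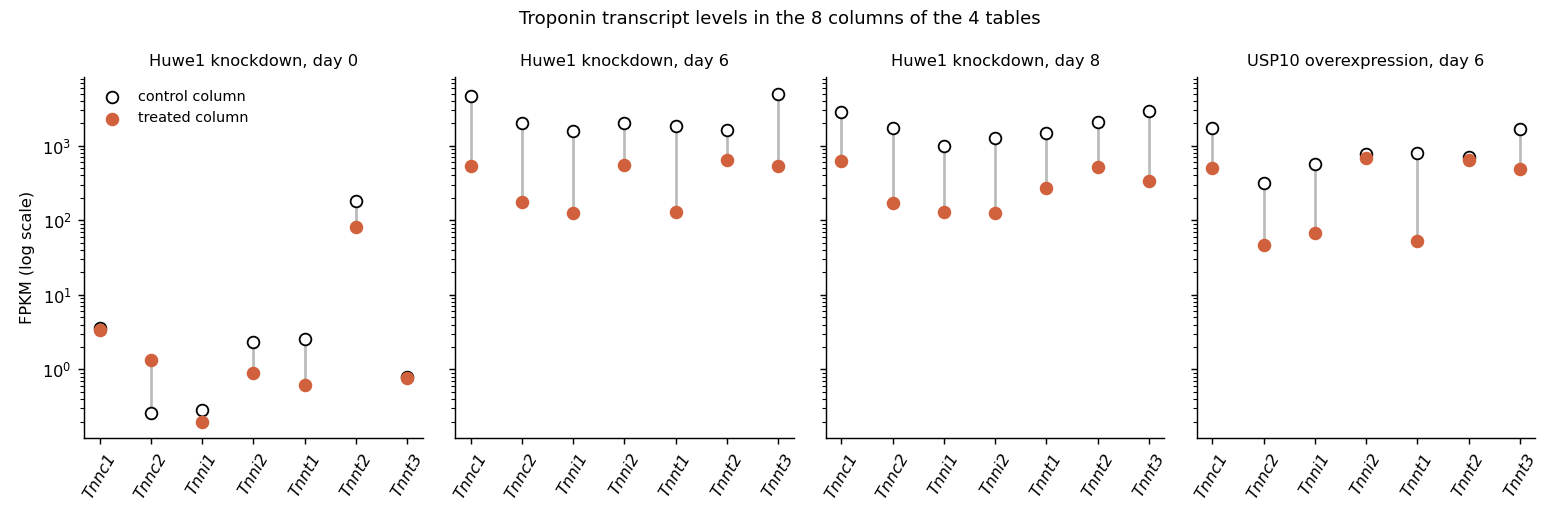
FPKM of the 7 troponin genes on a log axis, with 1 panel per comparison; open circles are the control column and filled circles the treated column, and the grey line joins them. At day 6 and day 8 every filled circle lies below its open circle, and with USP10 the circles of Tnni2 and Tnnt2 nearly coincide.

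Tnnc1, the slow and cardiac calcium-binding subunit (chr14:31208312-31211711, plus strand, mm10), stood at 3.60 (control) and 3.38 FPKM (knockdown) at day 0, at 4659 and 531 at day 6, at 2811 and 619 at day 8, and at 1726 and 505 in the USP10 table. It was level at day 0 and lower in each treated column of the differentiated cells, by 8.77-fold, 4.54-fold and 3.42-fold. Tnnc2, the fast form (chr2:164777162-164779734, minus strand), was at 0.257 and 1.33 FPKM at day 0, at 2015 and 175 at day 6, at 1756 and 173 at day 8, and at 319 and 46.3 in the USP10 table. Its log2 ratio was -3.53 at day 6, -3.35 at day 8 and -2.78 with USP10, lower than that of Tnnc1 in each. At day 0 it went the other way, with a log2 ratio of 2.32, but its control value is worth only about 4 fragments at the estimated depth.

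Tnni1, the slow inhibitory subunit (chr1:135799421-135810989, plus strand), was at 0.285 and 0.198 FPKM at day 0, at 1558 and 125 at day 6, at 1007 and 130 at day 8, and at 571 and 66.8 in the USP10 table. Its treated values in differentiated cells were 12.5-, 7.72- and 8.54-fold lower than their controls. Tnni2, the fast form (chr7:142442468-142444405, plus strand), was at 2.35 and 0.894 FPKM at day 0, at 2002 and 556 at day 6, at 1267 and 126 at day 8, and at 768 and 695 in the USP10 table. Among the 7 genes Tnni2 had the widest span of log2 ratios in differentiated cells: -1.85 at day 6, -3.33 at day 8 and -0.14 with USP10. The forms of troponin I did not keep one order, with Tnni1 the more reduced at day 6 and with USP10 and Tnni2 the more reduced at day 8.

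Tnnt1, slow troponin T (chr7:4504570-4515975, minus strand), was at 2.58 and 0.616 FPKM at day 0, at 1844 and 128 at day 6, at 1486 and 272 at day 8, and at 813 and 53.3 in the USP10 table. It had the lowest log2 ratio of the 7 genes at day 0 (-2.05), at day 6 (-3.85) and with USP10 (-3.93), but not at day 8 (-2.45). Only 2.01% of all genes that passed the minimum had a lower ratio at day 6, and 1.58% with USP10. Tnnt3, fast troponin T, was at 0.792 and 0.777 FPKM at day 0, at 5026 and 532 at day 6, at 2951 and 339 at day 8, and at 1675 and 493 in the USP10 table. It was the highest of the 7 in the Huwe1 controls of day 6 and day 8 and 9.45-, 8.70- and 3.40-fold lower in the treated columns. Its deposited locus, chr7:142460812-142516009, is a merged one that Lsp1 and Gm14492 share. By gene model Lsp1 does not overlap Tnnt3, while Gm14492 does, on the opposite strand. Reads of Gm14492 and Tnnt3 may therefore not be fully separable, with Gm14492 listed at 0.697 to 5.32 FPKM over the 8 columns.

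Tnnt2, cardiac troponin T (chr1:135836334-135852268, plus strand), stood apart from the others in its level before differentiation. It was at 182.7 and 80.8 FPKM at day 0, at 1623 and 639 at day 6, at 2090 and 523 at day 8, and at 717 and 638 in the USP10 table. Its control level at day 0 was already above that of every other member in any day 0 column, and its log2 ratios of -1.34 at day 6 and -2.00 at day 8 were the closest to 0 among the 7. Tnni3, the cardiac troponin I gene that is not among the 7, stayed low throughout, between 0.0995 and 9.24 FPKM, and was lower in the treated column in all 4 tables.

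**Figure D2:**
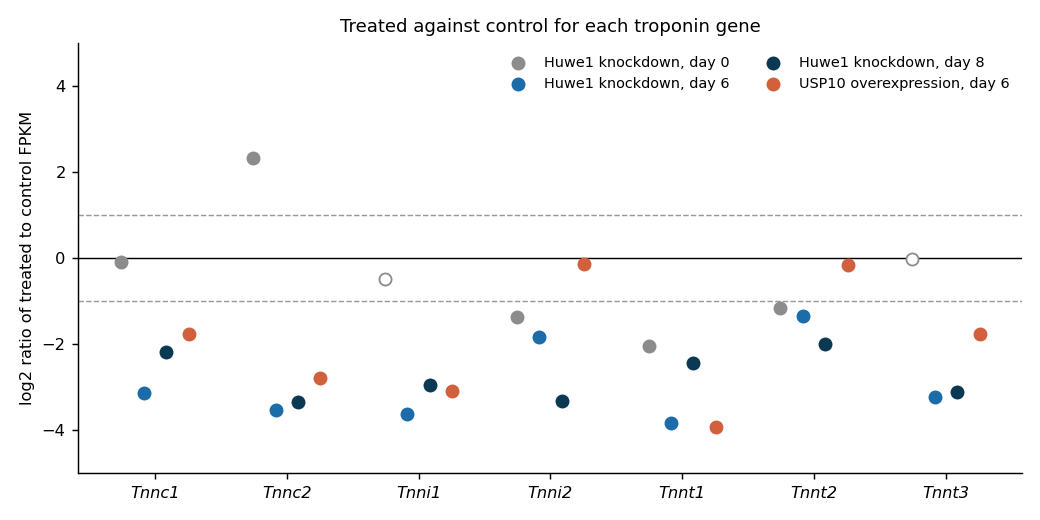
Log2 ratio of treated to control FPKM for each troponin gene, coloured by comparison; dashed lines mark 2-fold and open circles mark genes under 1 FPKM in both columns. Tnnt1 has the lowest points, at -3.85 and -3.93, Tnnc2 at day 0 is the only point above the upper dashed line, and the USP10 points of Tnni2 and Tnnt2 lie near 0.

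At day 0, 5 of the 7 genes passed the minimum of 1 FPKM in at least 1 column, and Tnni1 and Tnnt3 did not. Of the 5, Tnni2, Tnnt1 and Tnnt2 were at least 2-fold lower, where 1.69% of all genes were, and Tnnc2 was at least 2-fold higher, where 1.90% were. Only Tnnt2 rests on a high level, about 4378 fragments in the control. With a minimum of 5 FPKM it alone remained on the list, and with 1 FPKM added to each value none was 2-fold higher. At day 6 the median log2 ratio of the 7 was -3.24 beside -0.0065 for all genes, and Tnnc1, Tnnc2, Tnni1, Tnnt1 and Tnnt3 were at least 8-fold lower, where 3.25% of all genes were. At day 8 the median was -2.95 beside 0.00087, and Tnnc2, Tnni2 and Tnnt3 were at least 8-fold lower, where 1.73% were. With USP10 the median was -1.77 beside 0.049, and Tnni1 and Tnnt1 were at least 8-fold lower, where 2.57% were.

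The pair of day 6 controls gave the only view of how far untreated columns can differ. All 7 genes were higher in the control of the Huwe1 table, from 2.26-fold for Tnnt2 to 6.32-fold for Tnnc2, where 8.66% of all genes were at least 2-fold higher and the median gene differed by 0.07 on the log2 scale. The fold of the knockdown exceeded the fold between controls for 7 of 7 genes, though for Tnnt2 by little, 2.54 against 2.26. Both folds start from the control of the Huwe1 table. The count therefore says only that the knockdown lay below the other control, and it is no measure of control spread. The fold with USP10 exceeded the fold between controls for 5 of 7, all but Tnni2 and Tnnt2, and for Tnnc2 by little, 6.89 against 6.32. Here the control of the USP10 table enters both folds, on opposite sides of the ratio. That count is therefore no measure of control spread either. With the control columns exchanged between the tables, Tnnc2, Tnni2 and Tnnt2 were 1.82-, 1.38- and 1.12-fold lower in the knockdown, under the 2-fold threshold. In the same exchange Tnni2 and Tnnt2 were 2.88- and 2.54-fold lower with USP10. The treated columns themselves were alike for 4 genes: 531 and 505 FPKM for Tnnc1, 556 and 695 for Tnni2, 639 and 638 for Tnnt2, and 532 and 493 for Tnnt3, with the knockdown given first. For Tnnc2, Tnni1 and Tnnt1 the USP10 column was the lower one, at 46.3 against 175, 66.8 against 125 and 53.3 against 128 FPKM. These columns come from tables normalized separately.

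**Figure D3:**
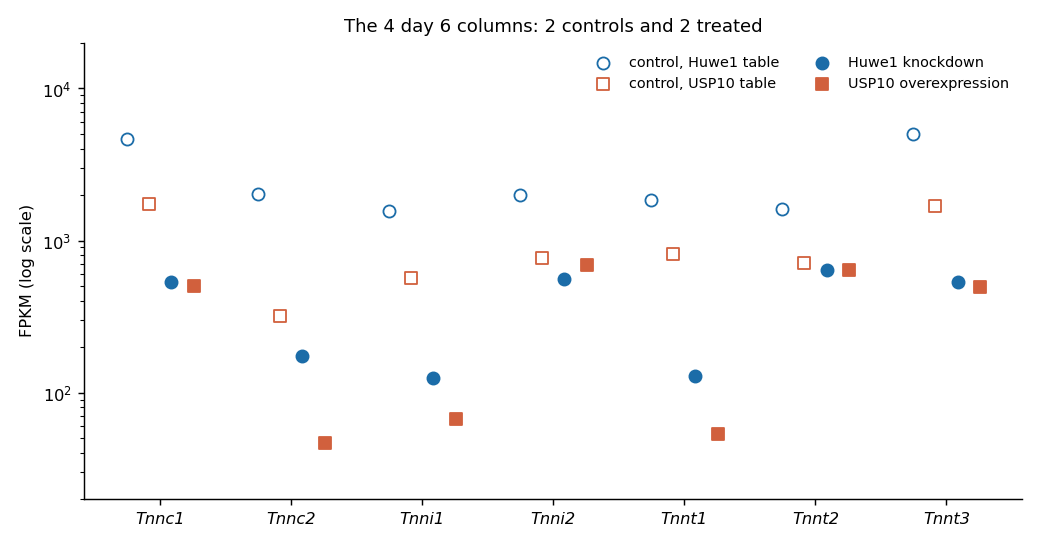
FPKM of the 7 troponin genes in the 4 day 6 columns, on a log axis; open symbols are the control columns, filled symbols the treated ones, circles the Huwe1 table and squares the USP10 table. For all 7 genes the open square lies below the open circle, by 2.26- to 6.32-fold, and for Tnni2 and Tnnt2 it lies close to both filled symbols.

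Isoform shares within a column do not depend on how a table was scaled, and they differed between treated and control columns. Tnni1 made up 43.8% of troponin I transcripts in the day 6 control, 44.3% in the day 8 control and 42.6% in the control of the USP10 table, a range of 1.62 points. In the day 6 knockdown it made up 18.4% and with USP10 8.78%, far under that range, while in the day 8 knockdown it stood above it at 50.8%. Tnnt2 made up 19.1%, 32.0% and 22.4% of troponin T in the same controls and 49.2%, 46.1% and 53.9% in their treated columns, all above the control range. Tnnt3 was below its control range of 45.2% to 59.2% in all 3 treated columns, at 40.9%, 29.9% and 41.6%. Tnnt1 was at 21.7% and 9.85% at day 6, at 25.4% and 4.50% with USP10, and at 22.8% and 23.9% at day 8.

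Troponin C was less clear. Tnnc1 made up 69.8% of it in the day 6 control, 61.5% in the day 8 control and 84.4% in the control of the USP10 table. Its treated shares were 75.2%, 78.2% and 91.6%, each above its own control, but only the last was outside the control range. At day 0 Tnnt2 was 98.2% of troponin T in the control and 98.3% in the knockdown. The day 0 shares of troponin C and I rest on 1.09 to 4.71 FPKM in all.

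**Figure D4:**
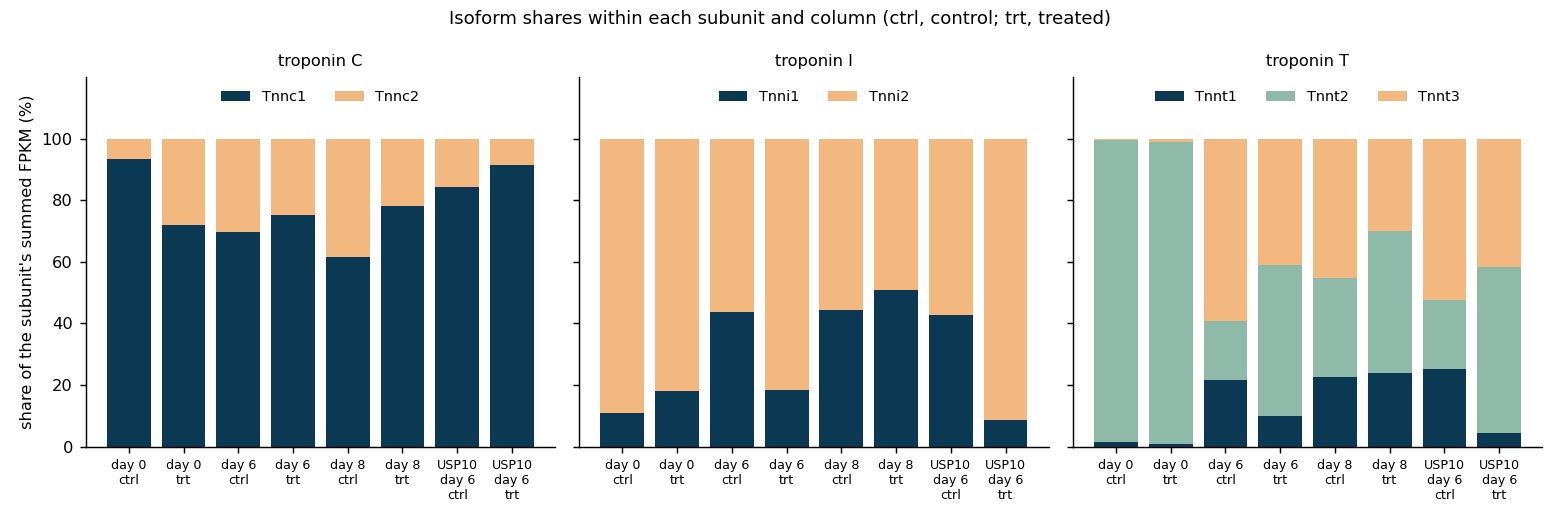
Share of each isoform in the summed FPKM of its subunit, in percent, for troponin C, I and T in the 8 columns. The Tnni1 share is 42.6% to 44.3% in the 3 differentiated control columns and 18.4%, 50.8% and 8.78% in their treated columns, and the Tnnt2 share is higher in each differentiated treated column than in its control.

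The balance between subunits was also read from the summed FPKM of each. Troponin C to troponin I was 1.87 in the day 6 control, 2.01 in the day 8 control and 1.53 in the control of the USP10 table. It was 1.04 in the day 6 knockdown and 0.723 with USP10, below those controls, and 3.09 in the day 8 knockdown, above them. Troponin T to troponin C was 1.27, 1.43 and 1.57 in the controls and 1.84, 1.43 and 2.15 in the treated columns. At day 0 troponin T exceeded troponin C by 48.2-fold in the control and 17.5-fold in the knockdown, with nearly all of troponin T from Tnnt2.

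The span from day 0 to differentiated controls shows what each gene does in untreated cells, across tables normalized separately. Tnnt2 was 8.88-fold above day 0 in the day 6 control of the Huwe1 table, 3.92-fold in that of the USP10 table and 11.4-fold at day 8. The other 6 were at least 315.3-fold above day 0 in each of these columns. In the day 6 control of the Huwe1 table they ran from 715-fold for Tnnt1 to 7838-fold for Tnnc2. Their day 0 values were at most 3.60 FPKM, so their folds over day 0 are loose. In the knockdown, day 6 over day 0 was 7.91-fold for Tnnt2, close to its control, and from 132-fold for Tnnc2 to 685-fold for Tnnt3. Troponin transcripts were thus higher at day 6 than at day 0 in the knockdown too. The 7 genes summed to 3.32% of all FPKM in the day 6 control and 0.525% in the knockdown, to 2.54% and 0.468% at day 8, and to 1.39% and 0.444% in the USP10 table. All 7 ranked among the 100 highest genes in the Huwe1 controls of day 6 and day 8, and 1 did in each knockdown column. Tnnt3 and Tnnc1 were the 2 highest of the 7 in all 3 differentiated controls, at 5026 and 4659 FPKM at day 6, 2951 and 2811 at day 8, and 1675 and 1726 in the USP10 table. The order of the other 5 differed between these controls, with Tnnc2 next after them at day 6 in the Huwe1 table and last in the USP10 table.

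In the genome each troponin I gene lies beside a troponin T gene. Tnni1 and Tnnt2 stand 25364 bases apart on chromosome 1 with Lad1 between them, Tnni2 and Tnnt3 stand 54425 bases apart on chromosome 7 with Lsp1 between them by gene model, and Tnnt1 and Tnni3 stand 2300 bases apart on chromosome 7. Lad1 stayed under 1 FPKM in every column, from 0.0215 to 0.763. Lsp1 lay between 26.6 and 74.5 FPKM, with log2 ratios of -0.52 at day 0, 0.25 at day 6, -0.66 at day 8 and -0.32 with USP10. The ratios of linked genes were apart in some comparisons and near in others. With USP10, Tnni1 was 8.54-fold lower and its neighbour Tnnt2 1.12-fold lower, and Tnni2 was 1.10-fold lower and its neighbour Tnnt3 3.40-fold lower, while Tnnt1 and Tnni3 had log2 ratios of -3.93 and -2.97. At day 8, Tnni2 and Tnnt3 had log2 ratios of -3.33 and -3.12. Tnnt1 and Tnni3 were farther apart in the Huwe1 knockdown, at -3.85 and -1.29 at day 6 and -2.45 and -0.31 at day 8. Tnni3 lay between 1.17 and 9.24 FPKM in the differentiated columns.

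Other thin-filament genes were counted for comparison, 19 of them in the tables. At day 6, 13 of the 17 that passed the minimum were at least 2-fold lower, where 13.4% of all genes were. At least 2-fold higher was 1, where 17.6% of all genes were, and the median log2 ratio was -2.59. Nrap, an actin-anchoring protein of growing myofibrils, was lowest at -6.80, and skeletal actin Acta1 went from 4282 to 932 FPKM. At day 8, 11 of 18 were at least 2-fold lower, where 10.0% of all genes were. The median was -1.11, and cardiac actin Actc1 was lowest at -3.13. With USP10, 11 of 18 were at least 2-fold lower, where 10.0% of all genes were. The median was -1.99, and Nrap was lowest at -8.27. With USP10, Acta1 was at 2164 and 1599 FPKM and tropomyosin Tpm1 at 1556 and 1174. These abundant thin-filament transcripts, like Tnni2 and Tnnt2, were under 2-fold lower. The abundant Tnnc1 and Tnnt3 were 3.42- and 3.40-fold lower there, and Actc1 went from 544 to 108 FPKM.

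Genes of the fast and slow fibre programs were lower alongside. Over all genes, 13.4% were at least 2-fold lower at day 6, 10.0% at day 8 and 10.0% with USP10. Of 13 fast-fibre genes, 13 of 13 that passed were at least 2-fold lower at day 6 (median -3.83), 12 of 13 at day 8 (median -2.43) and 11 of 12 with USP10 (median -4.63). Of 12 slow-fibre genes, the counts were 10 of 11 (median -2.67), 8 of 11 (median -1.85) and 9 of 10 (median -2.90). The fast light chain Mylpf was at 5865 and 2146 FPKM at day 6, 4641 and 861 at day 8, and 2857 and 1953 with USP10. Among the fast-fibre genes that passed, Mylpf was the least reduced at day 6 and with USP10. Pvalb was lowest at day 6 (-6.43), and Myh4 at day 8 (-5.15) and with USP10 (-7.30). Developmental and cardiac genes gave 5 of 5, 4 of 5 and 4 of 5 at least 2-fold lower, with embryonic myosin Myh3 lowest at day 8, from 1218 to 45.4 FPKM.

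A list of 18 transcription factors, drawn up as possible regulators of troponin genes, had medians nearer to 0. At day 6, 9 of 17 were at least 2-fold lower, where 13.4% of all genes were, and 2 higher, where 17.6% were (median -1.30). At day 8, 6 of 17 were lower, where 10.0% of all genes were (median -0.25). With USP10, 7 of 17 were lower, where 10.0% were, and 2 higher, where 9.70% were (median -0.78). Myogenin (Myog), which drives terminal differentiation, went from 619 to 27.1 FPKM at day 6, from 392 to 148 at day 8 and from 305 to 28.8 with USP10. At day 8 Mef2c was lowest of the 18, from 48.6 to 3.99 FPKM, while Myod1 was at 127 and 107 FPKM. At day 0 Myod1, the myoblast determination factor, was the only one of 14 at least 2-fold lower, at 21.7 and 9.30 FPKM.

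Markers of fibroblasts were higher in the treated columns of day 6. Of 11 fibroblast and mesenchymal markers, 8 of the 9 that passed were at least 2-fold higher in the day 6 knockdown, where 17.6% of all genes were, and 4 of 9 with USP10, where 9.70% were. At day 8, 2 of 9 were higher, where 7.89% of all genes were, and 2 were lower. Their summed level was 132 FPKM in the day 6 control and 4552 in the knockdown, 554 and 818 at day 8, and 530 and 4147 in the USP10 table. Decorin (Dcn), a matrix proteoglycan, carried most of the day 6 and USP10 sums, at 7.94 and 2987 FPKM at day 6 and 50.3 and 3037 with USP10. Col3a1 was at 107 and 685 FPKM at day 6 and 341 and 471 with USP10, and Ly6a at 2.54 and 584 and at 31.3 and 429. Thy1 was listed at 0 in both columns at day 6. At day 8 the members of the list diverged: Pdgfra was at 1.95 and 7.74 FPKM, Col3a1 at 411 and 710, Col1a1 at 69.1 and 65.4, and Dpt at 38.2 and 3.96. The part of these markers in the troponin results was not tested.

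The adipocyte markers Adipoq, Cfd and Lep were listed at 0 in every column, and the 6 adipocyte markers summed to 3.28 to 16.0 FPKM. The 6 endothelial and blood markers summed to at most 14.3 FPKM, and the 6 cardiomyocyte markers, which include Tnni3, to at most 44.2 FPKM. Of 8 myoblast markers at least 7 were at 1 FPKM or more in every column, among them the desmin gene Des, at 345.2 and 173 FPKM at day 0. The myoblast markers summed to 3033 and 1969 FPKM at day 6, 3051 and 1856 at day 8, and 1961 and 1587 with USP10. They did not move together: of the 8, 6 were lower at day 6, 5 at day 8 and 5 with USP10. Their median log2 ratios were -0.70, -0.18 and -0.41. At day 6 Des was at 1769 and 1083 FPKM, Myf5 at 3.51 and 18.5, and Pax7 at 7.54 and 0.0438. Of 20 housekeeping genes, none was at least 2-fold lower in any comparison. At day 6, 3 of the 20 were at least 2-fold higher, where 17.6% of all genes were, and with USP10 3 were, where 9.70% were. B2m led at day 6, at 136 and 1242 FPKM, and Tbp itself with USP10, at 27.8 and 89.6 FPKM.

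**Figure D5:**
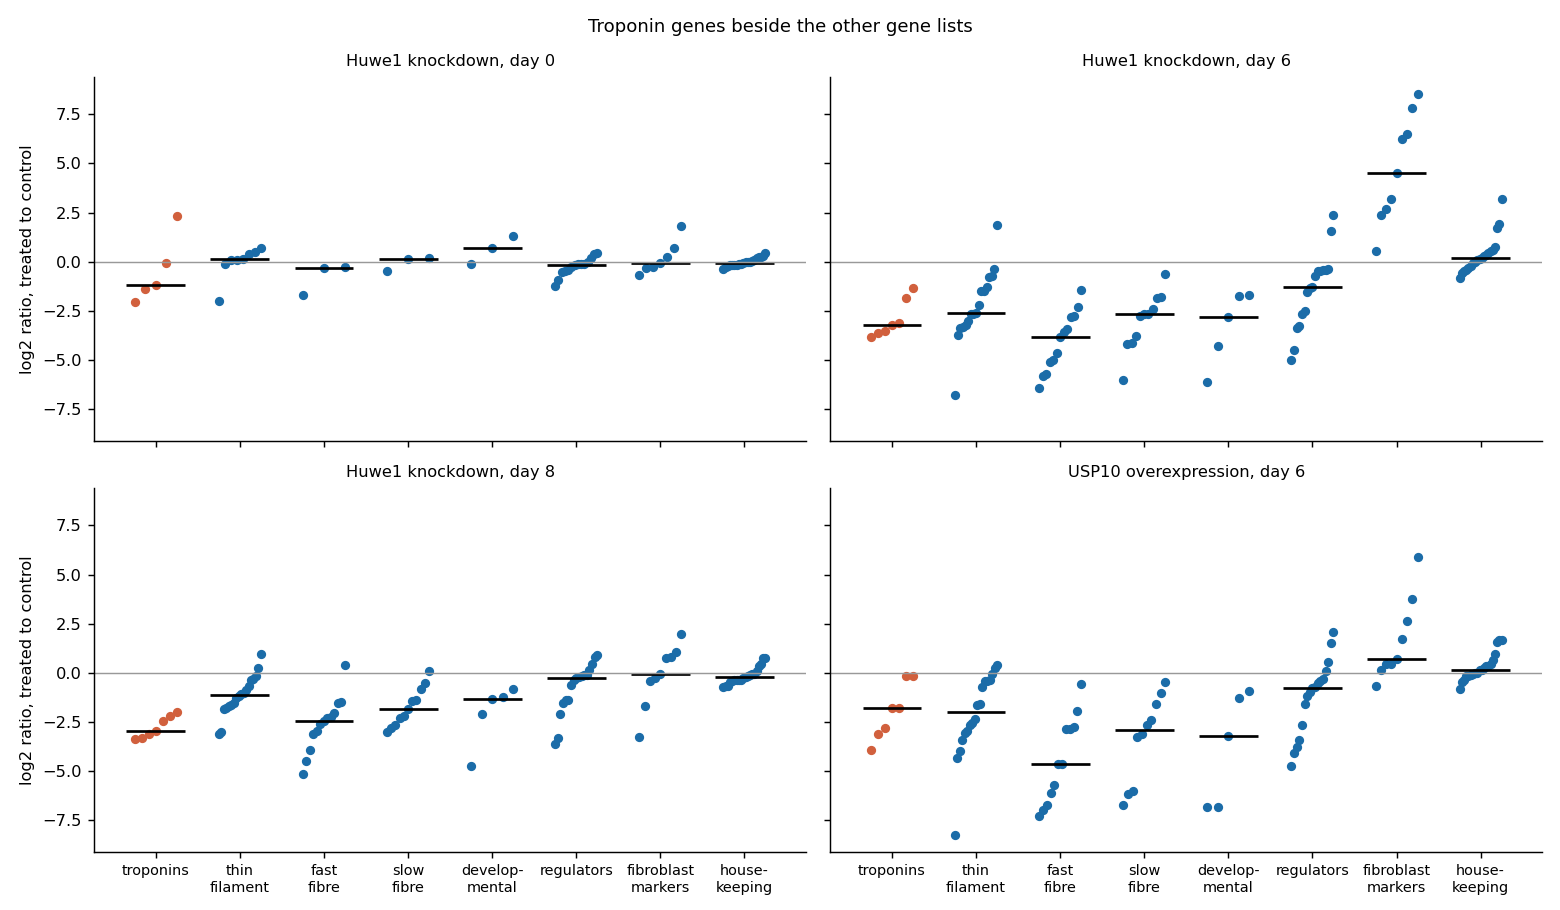
Log2 ratio of treated to control for the troponin genes (orange) and for genes of 7 other lists (blue) that had at least 1 FPKM in a column, with 1 panel per comparison; black bars are list medians. The troponin median is -3.24 at day 6, -2.95 at day 8 and -1.77 with USP10, and the fibroblast markers lie above 0 at day 6.

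Among 8371 genes with at least 10 FPKM in a column, the 3 whose log2 level over the 8 columns was most like each troponin's were named. The points are columns of 4 separately normalized tables, and most of the spread is the step from day 0 to differentiated cells, so Pearson's r is a description. Nearest to Tnnc1 were Myom2, Mybph and Tmem8c, nearest to Tnnc2 were Zeb1, Ckm and Nmrk2, and nearest to Tnni1 were Ryr1, Myom1 and Akap6. Nearest to Tnnt1 were Jhdm1d, Klhl41 and Neb, and nearest to Tnnt3 were Mybph, Myom2 and Myl1. Nearest to Tnnt2 were Trim55, Neurl1a and Kif1c, with r of 0.980 to 0.984, the lowest of these sets. Of these names, only Mybph, for Tnnc1, stayed when only the 6 columns of day 6 and day 8 were used. Between the troponins themselves r ran from 0.921 to 0.998 over 8 columns, with Tnnc1 and Tnnt3 the closest pair, and from 0.509 to 0.987 over 6 columns, with Tnni2 and Tnnt1 the least alike.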

How the data were processed

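Directional mRNA-seq of 10 C2C12 libraries was read from 4 deposited tables. The authors mapped reads to mm10 with Tophat, with Bowtie2 also named in the submitters' processing notes, and Cuffdiff gave 1 FPKM value per gene and condition. Versions and annotation are not given in the sources used here, nor whether strand was used in counting. The tables also hold the authors' own fold changes, test scores, p-values and q-values, which were not used. From the deposited FPKM, log2 ratios were computed with 0.01 added to each value, for genes reaching 1 FPKM in either column, and 2-fold and 8-fold counts were made. Named genes were the 7 troponins, Tnni3, Huwe1, Usp10, genes between or next to troponin genes, up to 4 members per list (the 2 highest and the 2 with the largest ratios, markers listed at 0 aside) and the 3 genes most like each troponin by Pearson's r of log2(FPKM + 1), of which the set for Tnni2 is not reported here. Coordinates count from 1, the deposited starts counting from 0. The members and lists were chosen with earlier results of these data known. Depth was estimated from genes with 1 transcript of at least 1500 bases, and pooled columns gave no estimate. The scripts were tested on simulated data. Alternatives covered the added value, the minimum, centring, status, the fold threshold, shares, likeness and the choice of control. Computations ran in Python 3.11.15 with pandas 2.3.3 on numpy 2.4.6, and plots in matplotlib 3.10.9.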

Additional observations from a re-analysis of the deposited data

Results flagged for a closer look

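Tnnc2 went in opposite directions at different stages of the Huwe1 knockdown: its log2 ratio was 2.32 at day 0, -3.53 at day 6 and -3.35 at day 8. The day 0 value rests on 0.257 and 1.33 FPKM, and the difference between stages was not tested.

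The Tnni1 share of troponin I also went in opposite directions: in the knockdown it was lower by 25.4 points at day 6 (treated minus control -25.4) and higher by 6.53 points at day 8. The 3 differentiated controls spanned 1.62 points. The hairpins, the control and the time of delivery differ between the day 6 and day 8 tables and cannot be told apart from the stage, and the difference was not tested.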

How the results depend on the processing

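No paired analysis was possible because the tables hold pooled columns with no replicate values, and leaving out single replicates was not run for the same reason. At day 0 the count of troponin genes at least 2-fold lower was 1 in place of 3 with a minimum of 5 FPKM, with 1 FPKM required in both columns or with a 4-fold threshold, and the count higher was 0 in place of 1 with either minimum or with 1 FPKM added, since fewer genes pass or low values weigh less. Adding 1 FPKM to each isoform turned the day 0 change in the Tnnt2 share from 0.117 to -1.14 points. With USP10, 3 genes rather than 5 passed a 4-fold threshold. With the control column of the other day 6 table, chosen after seeing the data, the knockdown count was 4 in place of 7, the change in the Tnnc1 share at day 6 was -9.18 in place of 5.43 points, and with USP10 it was 21.8 in place of 7.19 points. That exchange also moved the ratio of treated to control of every member by 2.26- to 6.32-fold, with no change of direction. The cause of the gap between the controls was not tested. Centring on the median gene or on housekeeping genes, whose medians ran from -0.23 to 0.16, changed no 2-fold count by more than 1.5 times. Under all other settings the single-gene ratios of treated to control in differentiated cells, 168 values, stayed within 1.5-fold of those reported. At day 0 depth limits 6 of the 7 genes, which lie under 4 FPKM.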
